A study of Mus musculus with 12 samples.

Results

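A set of 10 genes of mitochondrial fatty acid oxidation was followed through the differentiation of C2C12 cells, an immortalized mouse myoblast line, with and without the bromodomain ligand PFI-3. The 10 genes (Cpt1a, Cpt1b, Cpt2, Acadvl, Acadl, Acadm, Acads, Hadh, Hadha and Hadhb) were chosen by name and make up 10 of the 16288 genes listed in at least 1 library. Each of them was listed in all 12 libraries, and all 10 passed the filter on low counts.

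The 12 RNA libraries form 6 groups of 2, which the labels call biological duplicates and letter A and B. Proliferating cells (GM) were kept in high-glucose medium with fetal bovine serum and received DMSO, the vehicle, or 50 uM PFI-3 for 12 h before harvest. Differentiating cells received the same DMSO or 50 uM PFI-3 for 12 h beforehand, were then moved near confluence to high-glucose medium with little horse serum and added insulin, and were harvested at 24 h (DM 24h) or 48 h (DM 48h), with the agent renewed every 24 h. PFI-3 binds the bromodomains of SMARCA2, SMARCA4 and PBRM1, which are subunits of SWI/SNF chromatin remodellers. Medium, serum, insulin, cell density and time change together between GM and DM, so their shares in a stage difference cannot be told apart. All groups come from 1 cell line, and the labels do not say whether duplicates were separate cultures, so p-values measure only the spread between these libraries.

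As background, long-chain fatty acids enter mitochondria through the carnitine shuttle. CPT1, on the outer membrane, makes acylcarnitine and is the step inhibited by malonyl-CoA. CPT2, on the inner membrane, turns acylcarnitine back into acyl-CoA. Each turn of beta-oxidation then starts with an acyl-CoA dehydrogenase chosen by chain length, continues through hydration and a second dehydrogenation, and ends with thiolysis. Skeletal muscle relies on the pathway at rest and in endurance work, and its usual CPT1 is the product of Cpt1b, whereas Cpt1a encodes the form first known from liver.

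Short stretches of upstream sequence are shown for 4 of the genes, read 5′ to 3′ on each gene's own strand. Cpt1a, Acads and Hadh are shown because they were called higher with PFI-3 in both GM and DM 24h. The Hadhb stretch is shown because it lies between the divergent starts of Hadha and Hadhb, which are separated by 272 bases and whose mRNAs moved together. The sequences are RefSeq's, build GRCm38.p6, from a table that held 9 of the 10 genes. The stretches are chr19:3323137-3323286 (plus strand) for Cpt1a, chr5:115119347-115119446 (minus strand) for Acads, chr3:131272102-131272201 (minus strand) for Hadh and chr5:30155163-30155247 (plus strand) for Hadhb. Capitals mark matches to GGGCGG (GC box), AGGTCA (nuclear receptor half-site), CAGCTG (E-box) or CCAAT, each on either strand.
Cpt1a: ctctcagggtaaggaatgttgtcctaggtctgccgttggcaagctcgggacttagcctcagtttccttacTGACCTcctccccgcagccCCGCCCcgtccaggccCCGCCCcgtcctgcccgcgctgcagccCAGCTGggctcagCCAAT
Acads: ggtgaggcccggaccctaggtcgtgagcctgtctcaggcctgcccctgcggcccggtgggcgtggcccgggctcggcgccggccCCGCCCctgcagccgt
Hadh: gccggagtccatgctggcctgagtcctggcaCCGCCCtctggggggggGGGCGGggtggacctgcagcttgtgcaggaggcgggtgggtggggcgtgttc
Hadhb: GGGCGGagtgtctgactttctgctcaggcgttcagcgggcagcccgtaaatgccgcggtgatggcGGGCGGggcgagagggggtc

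The Cpt1a stretch precedes the transcript start at position 3323301, while the annotated gene begins at 3322326. In GENCODE it falls in the first intron of a longer Cpt1a transcript, apart from its last bases, which reach the first exon of the shorter one. Its matches begin 94 bases before that start (half-site), 75 and 59 bases before it (GC boxes), 32 bases before it (E-box) and 19 bases before it (CCAAT). Over the 250 bases upstream, 7 of the 9 genes held a GC box, which 32.7% of 32851 promoters of this length also held. The only match of Hadha, 188 bases before its start, is the Hadhb match 90 bases before that start, read on the other strand. That site is therefore counted for both genes, whose upstream stretches largely overlap. The half-site was found for 3 (Cpt1a, Acadm and Acadvl) against 14.0% of promoters. The E-box was found for 1 (Cpt1a) against 13.0%, and CCAAT for 2 (Cpt1a and Hadh) against 33.85%. Neither the DR1 element (2 such half-sites in a row with 1 base between them) nor TCAAGGTCA was matched in any of the 9. Over all 32851 promoters these exact letters were matched in only 0.033% and 0.387%, so their absence from 9 genes is not a trait of these genes. These matches describe letters only.

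Library totals lay between 12576374 and 13658352 expected counts. Duplicates differed more in GM than in DM: the SD over genes of the log2 ratio of A to B was 0.333 to 0.367 in GM and 0.144 to 0.168 in the DM groups. All 6 myoblast markers were present in every group. In GM they summed to 1056 and 1102 CPM (counts scaled to a common library total, without regard to length) with DMSO against 691 and 827 CPM with PFI-3. At DM 24h they summed to 2595 to 2616 CPM with DMSO against 1820 to 1864 CPM with PFI-3. The sums at DM 48h were 4250 to 4327 CPM against 3545 to 3716 CPM. The summed level of 8 markers of differentiated muscle was 6.35 to 11.7 CPM in GM. With DMSO it was 2589 to 2603 CPM at DM 24h and 18779 to 18859 CPM at DM 48h, and with PFI-3 it was 1055 to 1063 CPM and 12078 to 12312 CPM. The differentiated muscle markers therefore moved with stage, and with treatment at DM 24h and DM 48h. In GM the treatments overlapped, at 11.7 and 6.35 CPM with DMSO and 9.53 and 11.1 CPM with PFI-3. These are the libraries of every comparison below, and the part of the muscle markers in those results was not tested. Fewer differentiated cells and less RNA per cell cannot be told apart in bulk RNA. Of other cell types, the 6 adipocyte markers summed to at most 0.21 CPM, with Plin1, Cidec, Lep and Cfd at 0, and the 4 hepatocyte markers to at most 0.36 CPM, with Alb and Ttr at 0. The 3 immune markers summed to 0.87 to 9.05 CPM, with Adgre1 at 0. The 4 smooth muscle markers summed to 3939 and 1526 CPM in the GM DMSO libraries A and B and to 1320 and 936 CPM in the GM PFI-3 libraries; they summed to 2589 to 2617 CPM with DMSO against 1420 to 1468 CPM with PFI-3 at DM 24h, and 5052 to 5166 CPM against 3528 to 3582 CPM at DM 48h. The part of myoblast, smooth muscle and fibroblast markers in the results was not tested. Of 5 fibroblast markers, 3 to 5 had counts. In GM they summed to 45.15 and 49.6 CPM with DMSO against 25.4 and 30.3 CPM with PFI-3. At DM 24h they summed to 410 to 415 CPM with DMSO against 89.4 to 90.9 CPM with PFI-3. The sums at DM 48h were 593 to 610 CPM with DMSO against 151 to 156 CPM with PFI-3.

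Compared per length, as FPKM, Cpt1b was the lowest of the 10 genes in all 6 groups and Cpt2 was ninth in all 6. Acadl ranked first in both GM groups, at 62.5 ± 1.08 FPKM (SD, n = 2) with DMSO. Hadha ranked first in the 4 DM groups and reached 68.5 ± 2.14 FPKM (SD, n = 2) at DM 48h with DMSO. Cpt1b lay between 0.805 and 1.13 FPKM on average over the 6 groups, below Cpt1a in every library. Cpt1c, the third CPT1 gene, had 3.59 to 12.1 FPKM over the 12 libraries.

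**Figure D1:**
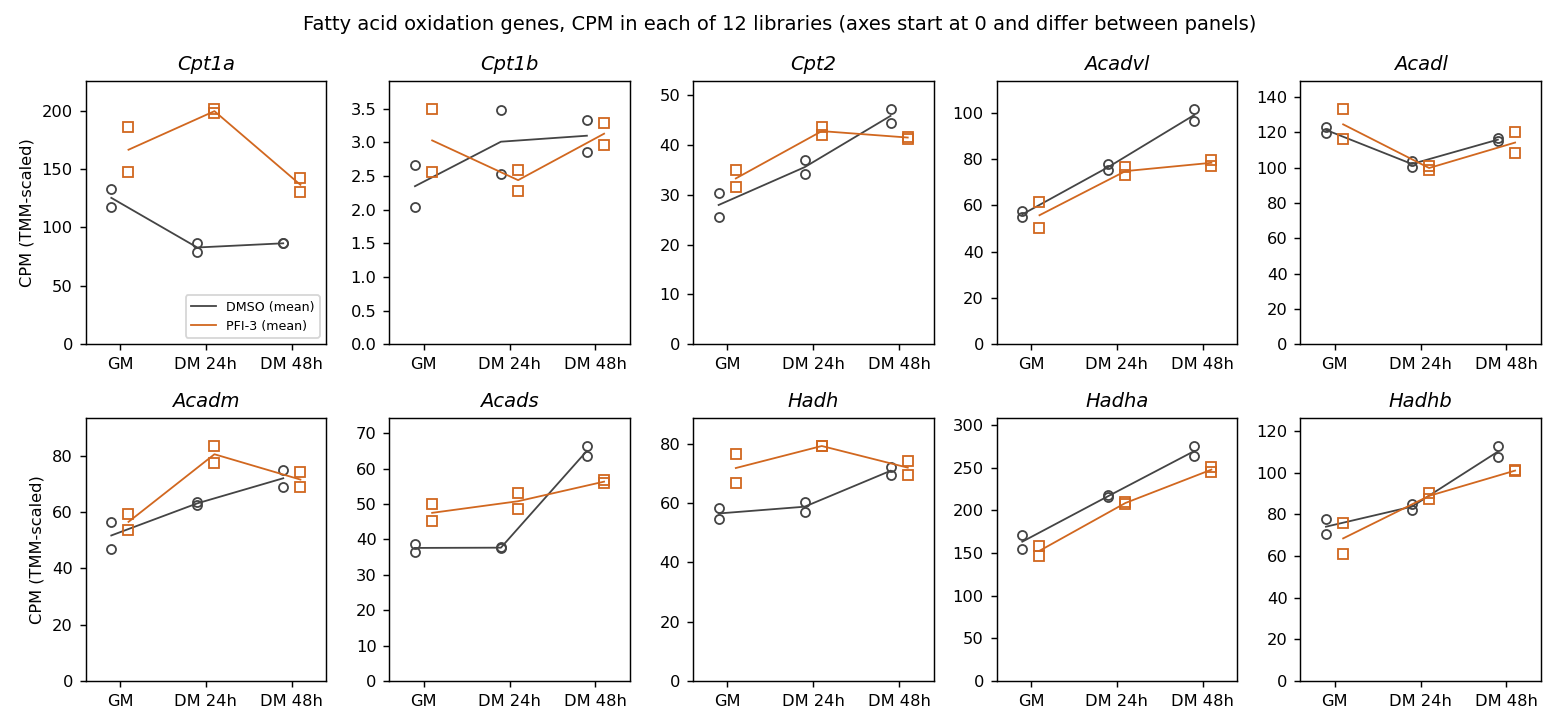
Level of each of the 10 genes in CPM (y axis, from 0, a separate scale per panel) at the 3 stages (x axis). Points are single libraries, circles for DMSO and squares for PFI-3, and lines join the means of 2; the Cpt1a lines part at DM 24h (82.8 against 199 CPM), while those of Hadha and Acadl run close together.

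The first question was how the 10 genes change when cells given only the vehicle differentiate. With DMSO, most of them rose and Cpt1a fell. At DM 24h, 4 were called higher and 2 lower than in GM, and at DM 48h, 7 were called higher and 1 lower (edgeR quasi-likelihood test, adjusted p under 0.05). Calls were common over the transcriptome: 60.6% of the 12545 genes tested were called at DM 24h, 30.6% as higher and 30.0% as lower, and 73.1% at DM 48h, 37.2% as higher and 35.9% as lower. Over the 10 genes the median log2 fold change was 0.23 at the earlier time (0.02 over all genes tested) and 0.53 at the later one (0.03 over all genes). Between DM 24h and DM 48h, 6 rose and none fell, where 48.1% of all genes were called, 24.2% as higher. Without DMSO library A of DM 24h, the calls at DM 24h dropped to 3.

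**Figure D2:**
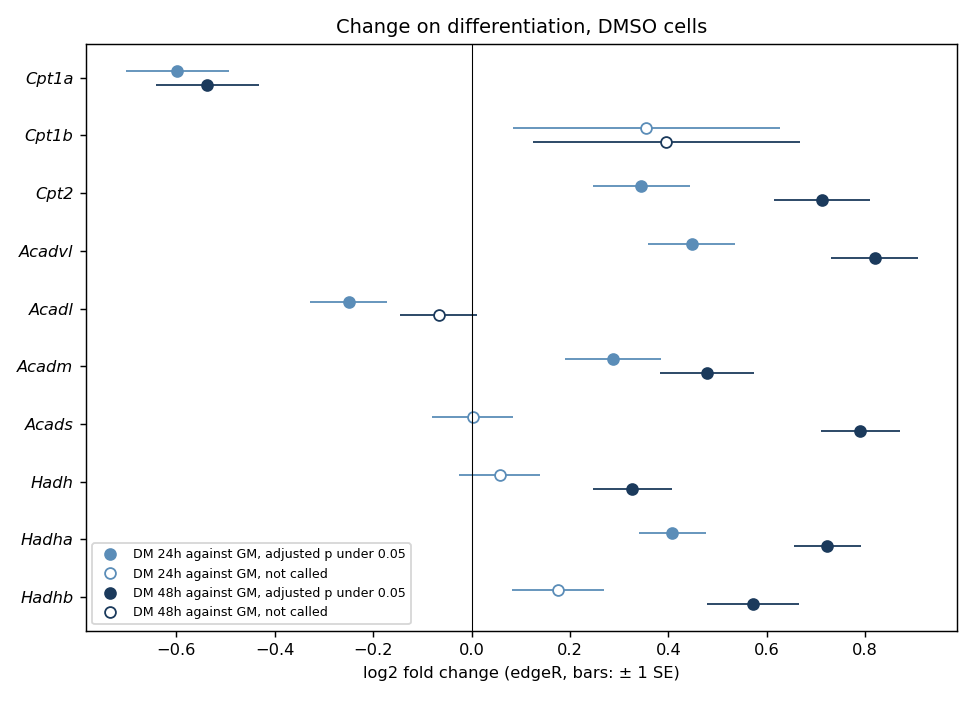
Log2 fold change (x axis, bars ± 1 SE) of each gene (y axis) in DMSO cells at DM 24h and DM 48h against GM, 2 libraries per group; filled points passed the adjusted p threshold. Cpt1a lies left of 0 at both times (-0.60 and -0.54), and 7 genes lie right of 0 and pass at DM 48h.

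The second question was what PFI-3 did at each stage. In GM, 3 of the 10 genes were called higher with PFI-3 and none lower, against 11.6% of all genes called (5.46% higher, 6.15% lower). At DM 24h, 4 were called higher and none lower, against 23.6% called (12.2% higher, 11.4% lower). At DM 48h, 1 was called higher and 1 lower, against 27.4% called (13.4% higher and 14.0% lower). In a fit of the 4 DM 48h libraries alone 1 was higher and 3 were lower. The shares over all genes, here and below, are those of the fit of 12 libraries, and none is given for fits of fewer libraries. At an unadjusted p under 0.05 none of the 10 was lower in GM or at DM 24h, and 2 were at DM 48h. DESeq2 called 2, 4 and 1 higher at the 3 stages, and lower only 1, at DM 48h. The 3 GM calls rest on single libraries: without DMSO library A or without PFI-3 library B, and in a fit of the 4 GM libraries alone with no block, none of the 3 passed. The effect of PFI-3 itself differed between stages for 1 gene between GM and DM 24h, where 3.37% of all genes were called (1.78% higher, 1.59% lower). It differed for 1 gene between GM and DM 48h, where 14.5% were called (8.25% higher, 6.29% lower), and for 3 between DM 24h and DM 48h, where 12.1% were called (7.12% higher, 4.97% lower).

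**Figure D3:**
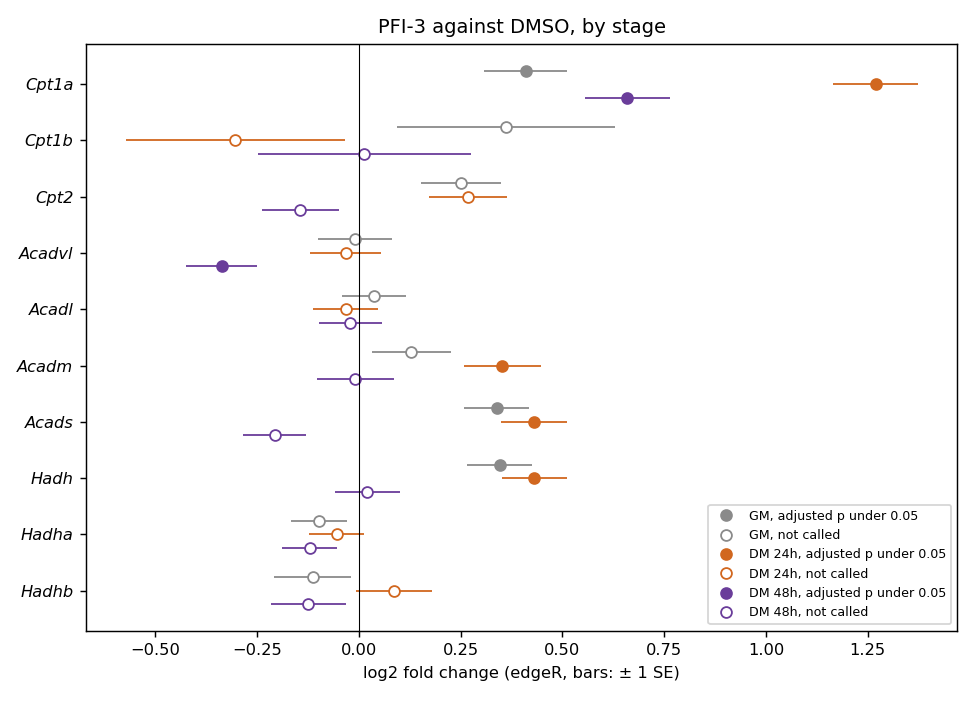
Log2 fold change with PFI-3 against DMSO (x axis, bars ± 1 SE) of each gene (y axis) by stage, with 2 libraries per group; filled points passed the adjusted p threshold. Cpt1a stands farthest right, at 1.27 at DM 24h and 0.66 at DM 48h.

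Cpt1a, the entry step of the carnitine shuttle, had the largest response to PFI-3 of the 10. With DMSO its level was 118 and 133 CPM (libraries A and B) in GM, 79.3 and 86.3 CPM at DM 24h, and 86.2 and 86.5 CPM at DM 48h. With PFI-3 it was 147 and 186 CPM in GM, 198 and 201 CPM at DM 24h, and 142 and 131 CPM at DM 48h. Every PFI-3 library was above every DMSO library of its stage, and the gap was widest at DM 24h. Differentiation with DMSO lowered Cpt1a, with log2 fold changes of -0.60 (SE 0.105, edgeR adjusted p = 0.000365) at DM 24h and -0.54 (SE 0.105, edgeR adjusted p = 0.000534) at DM 48h. At DM 24h PFI-3 raised it 2.41-fold (log2 1.27, SE 0.104, edgeR adjusted p = 6.58e-06). The rise at DM 48h was 1.58-fold (log2 0.66, SE 0.104, edgeR adjusted p = 0.000604). These DM calls of PFI-3 held in all 9 alternative fits and in all 12 fits that left out 1 library. In GM the log2 fold change was 0.41 (SE 0.102, edgeR adjusted p = 0.0249), a call lost as described above. The effect was larger at DM 24h than in GM by 0.86 on the log2 scale (edgeR adjusted p = 0.0096), and smaller at DM 48h than at DM 24h by a log2 difference of -0.61 (edgeR adjusted p = 0.0185). The first of these differences did not pass in a fit of only the libraries compared (adjusted p = 0.0608) or without any of 3 of the 4 DM 24h libraries, DMSO library A and both PFI-3 libraries. The second was lost in 6 of the 12 fits with 1 library left out, each time without a DM library: DMSO library A or either PFI-3 library of DM 24h, or either DMSO library or PFI-3 library B of DM 48h.

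Cpt1b, the muscle form of CPT1, stayed near the limit of what these depths resolve. Its deposited counts ran from 26 to 48 in the 12 libraries, and no contrast passed. With DMSO the levels were 2.04 and 2.66 CPM in GM, 2.54 and 3.48 CPM at DM 24h, and 3.33 and 2.86 CPM at DM 48h. With PFI-3 they were 3.49 and 2.57 CPM, 2.28 and 2.59 CPM, and 3.29 and 2.97 CPM in the same order. DMSO and PFI-3 libraries overlapped at every stage. The log2 fold change of DM 48h against GM was 0.40 with an SE of 0.271, so a change of moderate size was not detectable at this depth.

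As a share of the summed FPKM of Cpt1a and Cpt1b, leaving out Cpt1c, Cpt1b made up 2.56% and 2.92% in GM with DMSO, then 4.60% and 5.74% (DM 24h), then 5.51% and 4.75% (DM 48h). With PFI-3 the share was 3.45% and 2.05% in GM, then 1.72% and 1.91% (DM 24h), then 3.37% and 3.31% (DM 48h). At both DM stages the PFI-3 libraries lay below the DMSO libraries, whereas in GM they overlapped. Of the 2 terms, Cpt1a was called higher with PFI-3 at both DM stages, and no change of Cpt1b was called.

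Cpt2, the inner-membrane enzyme that regenerates acyl-CoA, rose with differentiation. Its level with DMSO was 25.5 and 30.4 CPM in GM, 36.9 and 34.1 CPM at DM 24h, and 47.2 and 44.5 CPM at DM 48h. The 3 stages did not overlap, and the log2 fold change against GM was 0.35 (SE 0.098, edgeR adjusted p = 0.00906) at DM 24h and 0.71 (SE 0.097, edgeR adjusted p = 2.72e-05) at DM 48h. The DM 24h call was lost without DMSO library A of GM or DMSO library A of DM 24h. It was also lost in a fit of only the libraries compared (edgeR adjusted p = 0.0575). With PFI-3 the levels were 31.6 and 35.0 CPM in GM, 43.6 and 41.9 CPM at DM 24h, and 41.3 and 41.7 CPM at DM 48h. PFI-3 libraries lay above DMSO libraries in GM and at DM 24h and below them at DM 48h, but no PFI-3 contrast passed (edgeR adjusted p of 0.119, 0.06 and 0.289). The DM 24h contrast did pass in a fit of that stage's 4 libraries alone. The ratio of Cpt1a to Cpt2 FPKM fell from 2.48 and 2.35 in GM to 0.982 and 1.05 at DM 48h with DMSO. In PFI-3 cells the ratio was 2.51 and 2.86 for GM, 2.44 and 2.58 for DM 24h, and 1.85 and 1.69 for DM 48h. The DM 24h ratio with DMSO was 1.15 and 1.36, below both PFI-3 libraries.

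The 4 acyl-CoA dehydrogenases, which handle very long (Acadvl), long (Acadl), medium (Acadm) and short (Acads) chains, did not move as a block. Acadvl rose steadily with DMSO, from 54.8 and 57.5 CPM in GM to 75.5 and 77.7 CPM at DM 24h and 96.6 and 102 CPM at DM 48h. Its log2 fold change was 0.45 (SE 0.089, edgeR adjusted p = 0.000928) at DM 24h and 0.82 (SE 0.088, edgeR adjusted p = 3.61e-06) at DM 48h, the largest rise of the 10 genes there. PFI-3 libraries had 50.2 and 61.3 CPM in GM, 76.6 and 73.1 CPM at DM 24h, and 77.2 and 79.7 CPM at DM 48h. Only at DM 48h did both PFI-3 libraries lie below both DMSO libraries, and the log2 fold change there was -0.34 (SE 0.087, edgeR adjusted p = 0.0127). That call was lost in both limma fits on FPKM and without DMSO library B, PFI-3 library A or PFI-3 library B of DM 48h (adjusted p up to 0.0945).

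Acads, the short-chain enzyme, rose late with DMSO, and was higher with PFI-3 before that rise. With DMSO it was 36.4 and 38.8 CPM in GM and 37.9 and 37.5 CPM at DM 24h, then 66.4 and 63.6 CPM at DM 48h. Nearly all of the rise thus fell between DM 24h and DM 48h, with a log2 fold change of 0.79 (SE 0.08, edgeR adjusted p = 6.43e-06) over that interval and of 0.00 (SE 0.082) before it. In PFI-3 cells it was 45.1 and 49.9 CPM in GM, 53.1 and 48.5 CPM at DM 24h, and 55.9 and 56.8 CPM at DM 48h. PFI-3 libraries lay above DMSO libraries in GM and at DM 24h, and below them at DM 48h. The log2 fold changes were 0.34 (SE 0.08, edgeR adjusted p = 0.0211), 0.43 (SE 0.081, edgeR adjusted p = 0.00264) and -0.21 (SE 0.078, edgeR adjusted p = 0.0677). The effect at DM 48h differed from that at DM 24h by -0.64 (edgeR adjusted p = 0.00302) and from that in GM by -0.55 (edgeR adjusted p = 0.00687), and both differences held in all 9 alternative fits and all 12 fits with 1 library left out. The GM call was lost in the DESeq2 test too, the DM 24h call held in all alternatives, and the DM 48h effect passed in a fit of the 4 DM 48h libraries alone.

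Acadm, the medium-chain enzyme, had 47.0 and 56.5 CPM in GM, 63.7 and 62.5 CPM at DM 24h and 75.1 and 69.0 CPM at DM 48h with DMSO. It was higher than in GM at DM 24h, by 0.29 on the log2 scale (edgeR adjusted p = 0.0223), and at DM 48h, by 0.48 (edgeR adjusted p = 0.000694). The DM 24h call was lost in fits of only the libraries compared, with and without a replicate block. Under PFI-3 Acadm was 53.6 and 59.5 CPM, 83.6 and 77.6 CPM, and 68.9 and 74.2 CPM at the 3 stages. Only at DM 24h did the treatments separate, with a log2 fold change of 0.35 (SE 0.095, edgeR adjusted p = 0.0189). This call did not survive the loss of any 1 of the 4 DM 24h libraries (adjusted p up to 0.143), and the DM 24h call against GM was lost without DMSO library A of GM or either DMSO library of DM 24h.

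Acadl, the long-chain enzyme, moved little. With DMSO it was 123 and 120 CPM in GM, 100 and 104 CPM at DM 24h and 115 and 117 CPM at DM 48h. Its log2 fold change at DM 24h was -0.25 (SE 0.078, edgeR adjusted p = 0.0154), a call lost without DMSO library A of that stage. That call was also lost in a fit of only the libraries compared with a replicate block (edgeR adjusted p = 0.0675). The log2 fold change at DM 48h was -0.07 (SE 0.078, edgeR adjusted p = 0.451). PFI-3 cells had 116 and 133 CPM, 98.5 and 101 CPM, and 108 and 120 CPM at the 3 stages. The log2 fold changes with PFI-3 were 0.04, -0.03 and -0.02, each with an SE of 0.078 or 0.079, and none passed.

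Hadh, the dehydrogenase of medium- and short-chain hydroxyacyl-CoA in the matrix, responded to PFI-3 much as Acads did up to DM 24h. With DMSO it was 54.8 and 58.3 CPM in GM, 60.5 and 57.2 CPM at DM 24h, and 69.6 and 72.3 CPM at DM 48h. With PFI-3 it was 67.0 and 76.8 CPM in GM, 79.4 and 79.3 CPM at DM 24h, and 74.4 and 69.6 CPM at DM 48h. The treatments did not overlap in GM or at DM 24h and did overlap at DM 48h. The log2 fold change was 0.35 (SE 0.08, edgeR adjusted p = 0.0187) in GM, 0.43 (SE 0.08, edgeR adjusted p = 0.00259) at DM 24h and 0.02 (SE 0.08, edgeR adjusted p = 0.877) at DM 48h. The DM 24h call held in all alternatives, and the GM call was lost as described above. The effect at DM 48h was smaller than at DM 24h by a log2 difference of -0.41 (edgeR adjusted p = 0.0356), which passed in 6 of 9 alternative fits and in 4 of 12 with 1 library left out; it was lost without any 1 of the 8 DM libraries. With DMSO, Hadh was called higher at DM 48h than in GM by 0.33 on the log2 scale (edgeR adjusted p = 0.00294).

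Hadha and Hadhb encode the alpha and beta subunits of the trifunctional protein, which carries out the last 3 steps of the cycle on long chains. They rose with differentiation, and no PFI-3 contrast of either passed. Hadha with DMSO was 155 and 171 CPM in GM, 218 and 215 CPM at DM 24h, and 263 and 275 CPM at DM 48h. With PFI-3 it was 146 and 159 CPM, 210 and 207 CPM, and 251 and 244 CPM. Hadha rose by 0.41 (SE 0.068, edgeR adjusted p = 0.00026) at DM 24h and by 0.72 (SE 0.068, edgeR adjusted p = 1.07e-06) at DM 48h on the log2 scale. Hadhb with DMSO was 70.5 and 77.5 CPM, 82.3 and 85.1 CPM, and 107 and 113 CPM, and with PFI-3 it was 61.0 and 75.9 CPM, 90.1 and 87.6 CPM, and 101 and 101 CPM. For Hadhb the log2 fold change was 0.18 (SE 0.094, edgeR adjusted p = 0.122) at DM 24h and 0.57 (SE 0.093, edgeR adjusted p = 0.000128) at DM 48h. With PFI-3 the log2 fold changes of Hadha were -0.10, -0.05 and -0.12 and those of Hadhb were -0.11, 0.09 and -0.13, in the order of the stages. In a fit of the 4 DM 48h libraries alone, Hadha passed as lower with PFI-3. In every library the FPKM of Hadha exceeded that of Hadhb, with ratios from 1.10 to 1.39. Over the 12 libraries their log2 CPM correlated with Pearson's r = 0.96; the libraries share 6 groups, so this describes the stage pattern above.

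The genes most like 3 of the members over the 12 libraries, out of 10367 genes averaging 5 CPM or more, were found by Pearson's r of log2 CPM. For Cpt1a they were Anpep (0.963), Slc22a23 (0.959), Il10rb (0.954), Nadk2 (0.949) and Sgsm3 (0.947). For Hadha they were Chrd and Cand2 (0.995 each), Fam107a (0.993), Klhl40 (0.992) and Trim55 (0.991). For Cpt1b the highest value was 0.763 (Rasal2).

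Other genes of the pathway were given by 9 lists holding 92 genes. In DMSO cells, 73.1% of all genes tested were called between GM and DM 48h, 37.2% as higher and 35.9% as lower. Those shares stand beside the DMSO counts of this paragraph. Its PFI-3 counts from the fit of 12 libraries stand beside other shares of all genes tested, called in either direction. These were 11.6% for GM, 23.6% for DM 24h and 27.4% for DM 48h. Of 15 other mitochondrial beta-oxidation enzymes, 11 rose and 1 fell at DM 48h with DMSO (median log2 fold change 0.65). Among those that rose was Ech1, an auxiliary isomerase, by 1.02 (SE 0.081, edgeR adjusted p = 2.11e-07). With PFI-3 none of the 15 was called in GM by edgeR or DESeq2 (3 at an unadjusted p under 0.05, and 1 called by limma on FPKM), 1 rose and 1 fell at DM 24h, and 1 fell at DM 48h (Ech1, log2 fold change -0.41, edgeR adjusted p = 0.00204). The 2 at DM 24h were Acaa2, a thiolase (0.40, edgeR adjusted p = 0.00732), and Acat1, the acetoacetyl-CoA thiolase (-0.48, edgeR adjusted p = 0.00866). Both were lost without DMSO library A or PFI-3 library A of DM 24h, and Acat1 also without either library B of that stage; in a fit of only the 4 DM 24h libraries the counts were 5 and 1. At DM 48h that kind of fit gave 0 higher and 5 lower. The 3 genes of the electron transfer flavoprotein chain, which takes up electrons from the acyl-CoA dehydrogenases, had 2 risers at DM 48h with DMSO and no call with PFI-3 at any stage by edgeR, DESeq2 or limma; at an unadjusted p under 0.05 there was 1 in GM and 1 at DM 24h, and in a fit of the 4 DM 24h libraries alone 2 were higher.

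Of 4 partners of the carnitine shuttle, 2 were higher at DM 24h than in GM with DMSO, and 3 were higher and 1 lower at DM 48h. Over all genes tested, 30.6% were called higher at the earlier time, and 37.2% higher and 35.9% lower at the later one. Slc25a20, the carnitine-acylcarnitine carrier, rose by 0.45 (SE 0.149, edgeR adjusted p = 0.0204) at the earlier time and by 1.01 (SE 0.145, edgeR adjusted p = 4.37e-05) at the later one. Both DM 24h calls (Slc25a20 and Cpt1c) were lost without GM DMSO library A or DM 24h DMSO library B (adjusted p up to 0.18). Crat, carnitine acetyltransferase, rose by 1.19 (SE 0.115, edgeR adjusted p = 1.3e-06) at DM 48h. With PFI-3, Cpt1c was called higher at DM 48h (log2 fold change 0.83, edgeR adjusted p = 0.0017). At DM 24h it was also called (0.52, edgeR adjusted p = 0.0169), but not without DMSO library A or either PFI-3 library of that stage. Of 3 genes that set malonyl-CoA, the inhibitor of CPT1, Acaca (acetyl-CoA carboxylase 1, which makes it) fell with PFI-3 at DM 24h. Its FPKM there was 34.7 and 32.3 with DMSO and 16.9 and 17.3 with PFI-3. The log2 fold change was -1.02 (SE 0.071, edgeR adjusted p = 1.96e-06), which held in all alternatives. With DMSO, Acaca was 18.8 and 21.1 FPKM in GM and 15.3 and 14.8 FPKM at DM 48h, so DM 24h was its highest stage. The smaller falls with PFI-3 in GM (-0.29, edgeR adjusted p = 0.0221) and at DM 48h (-0.30, edgeR adjusted p = 0.00858) were lost in both limma fits on FPKM, and also without PFI-3 library B of GM, and without DMSO library A or PFI-3 library B of DM 48h, respectively. The GM fall was lost in a fit of the 4 GM libraries alone too.

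**Figure D4:**
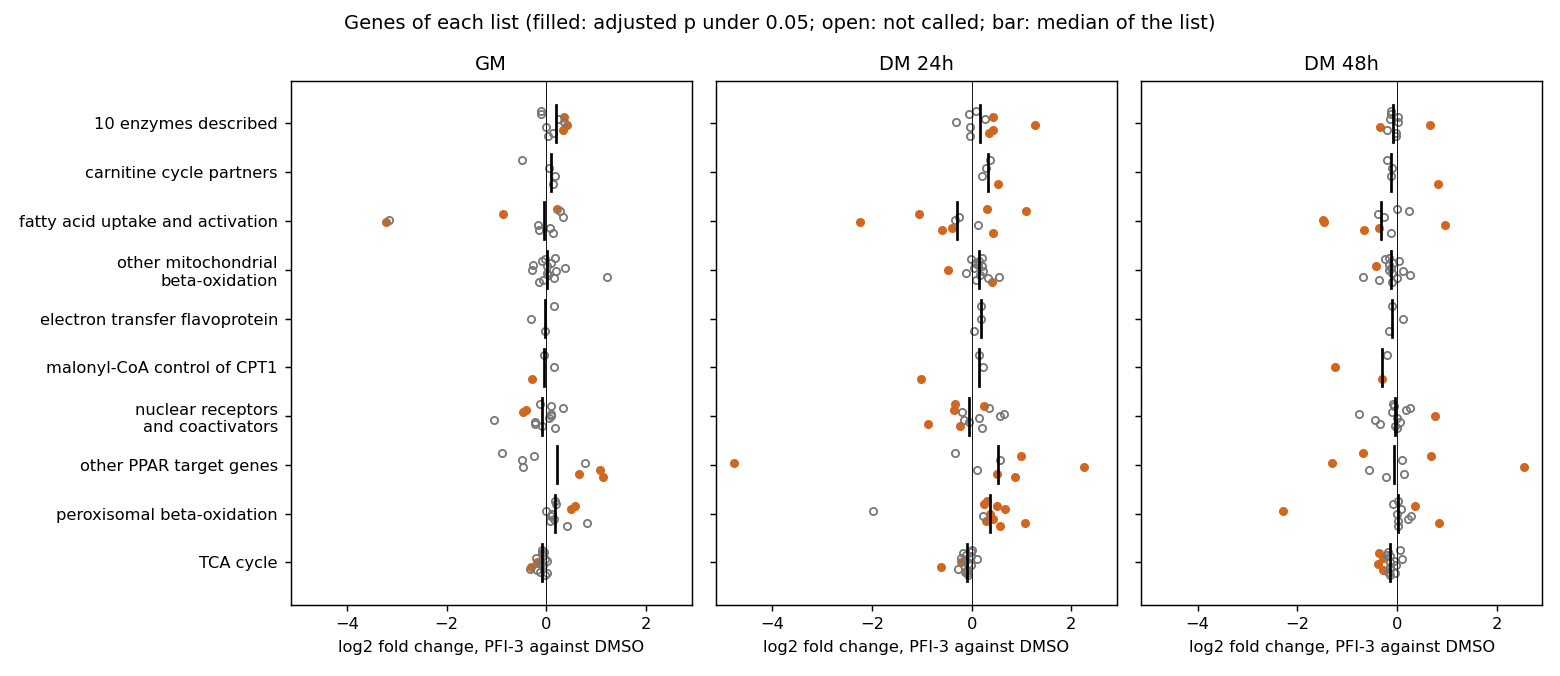
Log2 fold change with PFI-3 against DMSO (x axis) of the genes of 10 lists (y axis) at the 3 stages; each point is a gene, filled where the adjusted p was under 0.05, and bars are list medians. At DM 24h the peroxisomal list has 9 filled points right of 0 and none left of it, and the TCA list has 2 left of 0. Of all genes tested, 12.2% were called higher and 11.4% lower at DM 24h.

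Peroxisomal beta-oxidation, a separate route for very long and branched chains, had 9 of 11 tested genes higher and none lower with PFI-3 at DM 24h (median log2 fold change 0.36, beside 0.00 over all genes). DESeq2 called 6 of them, and 1 gene was lower at an unadjusted p under 0.05. Of all genes tested, 12.2% were called higher and 11.4% lower at DM 24h, and 5.46% and 6.15% in GM. The 27.4% of all genes called at DM 48h was near the share of this list called there. Acox3, an acyl-CoA oxidase, was 7.43 and 7.77 FPKM with DMSO and 12.4 and 12.6 FPKM with PFI-3, a log2 fold change of 0.68 (SE 0.114, edgeR adjusted p = 0.00141). Crot, the peroxisomal carnitine octanoyltransferase, rose by 0.50 (SE 0.107, edgeR adjusted p = 0.00569), a call lost without PFI-3 library B of that stage (adjusted p = 0.0585). The count of 9 fell to 2 without DMSO library A, 3 without DMSO library B, 2 without PFI-3 library A and 4 without PFI-3 library B of DM 24h. In GM 2 of the 11 were higher, against 0 in a fit of the GM libraries alone and 6 without DMSO library B; 1 was called without DMSO library A or PFI-3 library B of GM, or without DMSO library A or either PFI-3 library of DM 24h. At DM 48h 2 were higher and 1 lower, against 0 by DESeq2 and 0 without any 1 of the 4 DM 48h libraries.

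Of 8 tested targets of the PPAR nuclear receptors, 4 rose and 1 fell with PFI-3 at DM 24h. The shares over all genes at DM 24h, for these and for the nuclear receptors below, were 12.2% higher and 11.4% lower. Angptl4, a secreted inhibitor of lipoprotein lipase, went from 6.91 and 7.33 FPKM with DMSO to 35.7 and 35.2 FPKM with PFI-3, a log2 fold change of 2.26 (SE 0.173, edgeR adjusted p = 4.49e-06). At DM 48h its log2 fold change was 2.56 (SE 0.185, edgeR adjusted p = 2.08e-06). Plin2, a lipid droplet coat protein, rose by 1.00 (SE 0.14, edgeR adjusted p = 0.000402) and 0.69 (SE 0.145, edgeR adjusted p = 0.0038) at the same stages. Fgf21, a secreted factor of the fasting and stress responses, went the other way, from 22.5 and 23.5 FPKM to 0.73 and 1.00 FPKM at DM 24h (log2 fold change -4.77, SE 0.228, edgeR adjusted p = 9.96e-08). The DM calls of these 3 genes held in all alternatives. Of 13 tested nuclear receptors and coactivators, 1 rose and 4 fell at DM 24h, but without any 1 of the 4 DM 24h libraries at most 1 was called. In other fits 6 were higher and 4 lower in a fit of those 4 libraries alone, and 3 were higher and 3 lower by limma on log2(FPKM + 1). No share over all genes is given for those other fits.

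Genes of fatty acid uptake and activation were split, with 3 of 10 higher and 4 lower with PFI-3 at DM 24h. At that stage 12.2% of all genes were called higher and 11.4% lower. Slc27a1, a fatty acid transporter, fell with differentiation from 47.5 and 49.8 FPKM in GM to 16.5 and 14.9 FPKM at DM 24h with DMSO, and was 34.5 and 34.8 FPKM at DM 24h with PFI-3. Its log2 fold change with PFI-3 was 1.09 (SE 0.146, edgeR adjusted p = 0.000276). Fabp5, a fatty acid binding protein, was lower by a log2 fold change of -1.05 (SE 0.171, edgeR adjusted p = 0.00115), and Acsl6, an acyl-CoA synthetase, by -2.24 (SE 0.374, edgeR adjusted p = 0.00135). These 3 calls held in all alternatives, whereas the counts of 3 and 4 dropped to 1 and 3 without DMSO library A or without PFI-3 library B of that stage. Downstream, 2 of 17 TCA cycle genes were lower and none higher with PFI-3 at DM 24h, near the 11.4% of all genes called lower. One was Idh3a, the catalytic subunit of isocitrate dehydrogenase (log2 fold change -0.62, SE 0.093, edgeR adjusted p = 0.000644), which held in all alternatives. The other was Mdh2, malate dehydrogenase (-0.21, edgeR adjusted p = 0.0218), lost without any 1 of the 4 DM 24h libraries. With DESeq2 size factors the TCA count was 5, and in a fit of only those 4 libraries 8 were lower and 1 higher. The shares over all genes at DM 48h were 14.0% lower and 13.4% higher in the fit of 12 libraries. No share over all genes is given for fits of 1 stage's libraries, so the TCA counts of such fits cannot be set against one. At DM 48h 4 were lower and none higher, and 11 were lower in a fit of that stage's libraries alone, but 2 without DMSO library B or either PFI-3 library of DM 48h.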

How the data were processed

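The authors deposited 1 table per library with an expected count and an FPKM value (fragments scaled by length and library size) per gene, per the file headers; 93.3% to 93.7% of the expected counts were whole. Preparation, sequencing and downstream analysis were done by a commercial provider, per the labels. Build mm10 and the tools HISAT, StringTie, Cufflinks, Bowtie, RSEM and DESeq2 are named, without versions or roles, in the submitters' processing notes; strandedness is not given in the sources used here. A gene missing from a table was taken as 0.

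Expected counts were rounded and tested with edgeR 4.0.16 (R 4.3.3): TMM scaling, filterByExpr (12545 of 16288 genes), a quasi-likelihood fit of 6 group means over 12 libraries, and Benjamini-Hochberg adjustment over all genes tested, called under 0.05. CPM uses TMM-scaled totals. Log2 CPM for likeness used a prior count of 2. On simulated counts for PFI-3 at DM 24h, with 200 of 12545 genes changed 2-fold, edgeR recovered 96% and 6.3% of calls were false. The 200 were drawn from genes averaging 50 counts or more, and all other genes had the same mean in all 6 groups. The simulation therefore does not give the share recovered for smaller changes, for lower counts such as those of Cpt1b, or where many genes change between stages. Alternatives used limma 3.58.1, DESeq2 1.42.0, other filters and scalings, a replicate block, the libraries compared alone, and each library left out. All 10 members are named; of the lists, at most the 4 largest called changes per comparison among genes averaging 5 CPM or more were eligible. Members and lists were chosen with earlier results of these data known.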

Additional observations from a re-analysis of the deposited data

Results flagged for a closer look

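In the main fit, the response of 3 genes to PFI-3 differed between stages by edgeR's interaction contrasts with adjustment over all 12545 genes. Both libraries of each treatment enter at each stage. Acads had a smaller effect at DM 48h than at DM 24h (log2 difference -0.639, SE 0.112, adjusted p = 0.00302) and than in GM (-0.545, SE 0.112, adjusted p = 0.00687): its PFI-3 libraries lay above the DMSO libraries in GM and at DM 24h and below them at DM 48h. Cpt1a had a larger effect at DM 24h than in GM (0.859, SE 0.145, adjusted p = 0.0096) and a smaller one at DM 48h than at DM 24h (-0.609, SE 0.147, adjusted p = 0.0185), with PFI-3 above DMSO at all 3 stages. Hadh had a smaller effect at DM 48h than at DM 24h (-0.41, SE 0.113, edgeR adjusted p = 0.0356). As described above, only the Acads differences held in every other fit. Both Cpt1a differences were lost when some single libraries were left out, and the first also in a fit of only the libraries compared. The Hadh difference passed in 6 of 9 alternative fits and was lost without any single DM library. The contrasts share DM 24h or DM 48h libraries and are not independent of each other. Groups of 2 libraries allow no screen for single outlying libraries.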

How the results depend on the processing

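No called change of a gene named here turned direction in any alternative, and no scaling moved the median of all genes by more than 0.1. A block for the replicate letter over all 12 libraries left the number of members called at 6, 8 and 6 for induction, 3, 4 and 2 for PFI-3, and 1, 1 and 3 for the differences between stages. DMSO and PFI-3 libraries of 1 letter had deviations correlated by 0.488 (GM), 0.018 (DM 24h) and 0.037 (DM 48h) over genes. Since the DM stages showed no such correlation and the labels do not say what a letter marks, the letters were not taken to pair libraries, although libraries of 1 letter did deviate together in GM. The letter block within each stage, on the libraries compared, gave 2 members for PFI-3 in GM (Hadh and Cpt1a), 5 at DM 48h (1 higher, 4 lower), and 3 and 7 for the differences of DM 48h from GM and from DM 24h; for induction that fit left no degrees of freedom, and a block on the libraries compared, chosen after seeing the data, was used. A fit of only the libraries compared gave 0 members for PFI-3 in GM, 4 at DM 48h (1 higher, 3 lower), 0 for DM 24h minus GM and 7 for DM 48h minus DM 24h. Both limma fits on FPKM gave 1 at DM 48h. The causes were not tested.

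With 1 library left out, the members called ranged from 3 to 7 for DM 24h against GM, 0 to 4 for PFI-3 in GM, 1 to 3 for PFI-3 at DM 48h, 0 to 1 for DM 24h minus GM, 1 to 4 for DM 48h minus GM and 1 to 5 for DM 48h minus DM 24h. On CPM instead of FPKM, the Cpt1b share was 1.83% (GM), 3.49% (DM 24h) and 3.46% (DM 48h) with DMSO, and 1.21% (DM 24h) and 2.24% (DM 48h) with PFI-3, since CPM ignores length. Over single genes and alternatives, 5020 values kept their side of the threshold, 422 lost it and 51 gained it.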
